A study of Mus musculus with 5 samples.

Results

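The Bcl-2 family decides whether a stressed cell opens the outer membrane of its mitochondria, releases cytochrome c and dies by apoptosis. Survival proteins of the family (encoded by Bcl2, Bcl2l1, Mcl1 and Bcl2a1a) hold the pore-forming proteins (Bax and Bak1) in check, and BH3-only proteins (Bcl2l11, Pmaip1 and Bbc3, which encode Bim, Noxa and Puma) release that hold. In vessel-lining cells exposed to tumour necrosis factor, NF-kB-driven survival genes are known to oppose the death signal, and Bcl2a1a and Bcl2l1 are known NF-kB targets in other settings.

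The genes described here are these 9, and their members on the array are all probe sets whose single gene symbol in the platform annotation is one of them. That rule found 24 probe sets of 7 genes, out of 34958 single-symbol probe sets of 18194 genes. Bcl2a1a had 3 probe sets, each carrying several symbols, and Bax had no probe set with its symbol in the annotation used here, so neither was analysed. All 7 measured genes had a brightest probe set in the tested range, which held the 60% of genes with the highest mean over all 5 arrays.

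RNA was profiled on 5 one-colour oligonucleotide arrays, of which 2 were titled TNF-LTBR and 3 control, all at 24 h. Every sample was labelled as cultured aortic endothelial cells on the C57BL/6J background, grown in the same medium. The treatment note is identical for both groups and names only PBS, so group membership rests on the titles, and the agonists behind TNF-LTBR (tumour necrosis factor and the lymphotoxin beta receptor, by name) and their doses are not described in the labels. Whether replicate arrays stem from separate cultures or animals is not stated, so the p-values reflect only the scatter among these arrays, which may be technical.

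Values are intensities on a linear scale, and differences are on the log2(intensity + 16) scale, which understates changes of dim probe sets. The labelled cell type was only partly borne out. Of 12 endothelial markers, 6 lay below the tested range (Pecam1, Cdh5, Tek, Tie1, Vwf and Cldn5), and 6 lay in it (Kdr, Egfl7, Esam, Emcn, Plvap and Eng). Vwf, von Willebrand factor, reached at most 7.2 on any array, while Eng, endoglin, read 1550.2 to 1858.3. All 10 fibroblast and pericyte markers lay in the range. Arrays also resembled each other across the groups. Over all probe sets, TNF-LTBR array 1 correlated most with control array 2 (r = 0.971) and TNF-LTBR array 2 most with control array 3 (r = 0.975), while the TNF-LTBR arrays correlated at 0.947 with each other. These correlations are across probe sets, which are not independent replicates. In such bulk cultures, fewer cells of a type and less RNA per cell cannot be told apart.

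NF-kB proteins bind a short DNA element, the kB consensus, and the 250 bases before each RefSeq transcription start (GRCm38.p6) were searched for it on both strands. It was present in 2 of 13 windows of the member genes, one of Bbc3 and one of Bcl2l1, against 3.90% of all 32851 windows. Pmaip1 was not scanned. The matching stretches are shown because the comparison concerns NF-kB signalling, with Nfkbia, the gene of the inhibitor IkB-alpha, for comparison. Each is written 5′ to 3′ on the gene's strand, and capitals mark the match (for Bbc3, overlapping matches).
Bbc3, chr7:16309406-16309496, plus strand: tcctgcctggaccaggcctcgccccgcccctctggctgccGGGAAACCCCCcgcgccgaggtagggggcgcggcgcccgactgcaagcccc
Bcl2l1, chr2:152830940-152830967, minus strand: tgtttgtgGGGGGTCTCCagcatacgcc
Nfkbia, chr12:55492648-55492716, minus strand: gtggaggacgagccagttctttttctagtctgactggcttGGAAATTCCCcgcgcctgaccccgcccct
The Bbc3 match ended 126 bases before that start, the Bcl2l1 match 232 bases and the Nfkbia match 19 bases, where Bbc3 and Bcl2l1 each have several starts in the table. A match is a description of these letters and not a shown binding site.

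No measured member passed the test between TNF-LTBR and control. In limma with Benjamini-Hochberg adjustment over all 10916 genes tested, 0 members were called at 0.05, against a background of 0% of all genes, and the adjusted p was 0.999 for each of the 7. At an unadjusted p under 0.05, 0 of the 7 members passed, against 192 genes, or 1.76% of those tested. The differences ran from -0.31 for Bcl2l1 to 0.17 for Pmaip1, with 2 members higher and 5 lower in TNF-LTBR. Their median was -0.11, against -0.0035 over all genes tested. For all 7 members the range among the control arrays was larger than the difference between groups, as it was for 88.7% of all genes tested. With 2 and 3 arrays, the smallest two-sided p of an exact permutation test is 0.1.

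**Figure D1:**
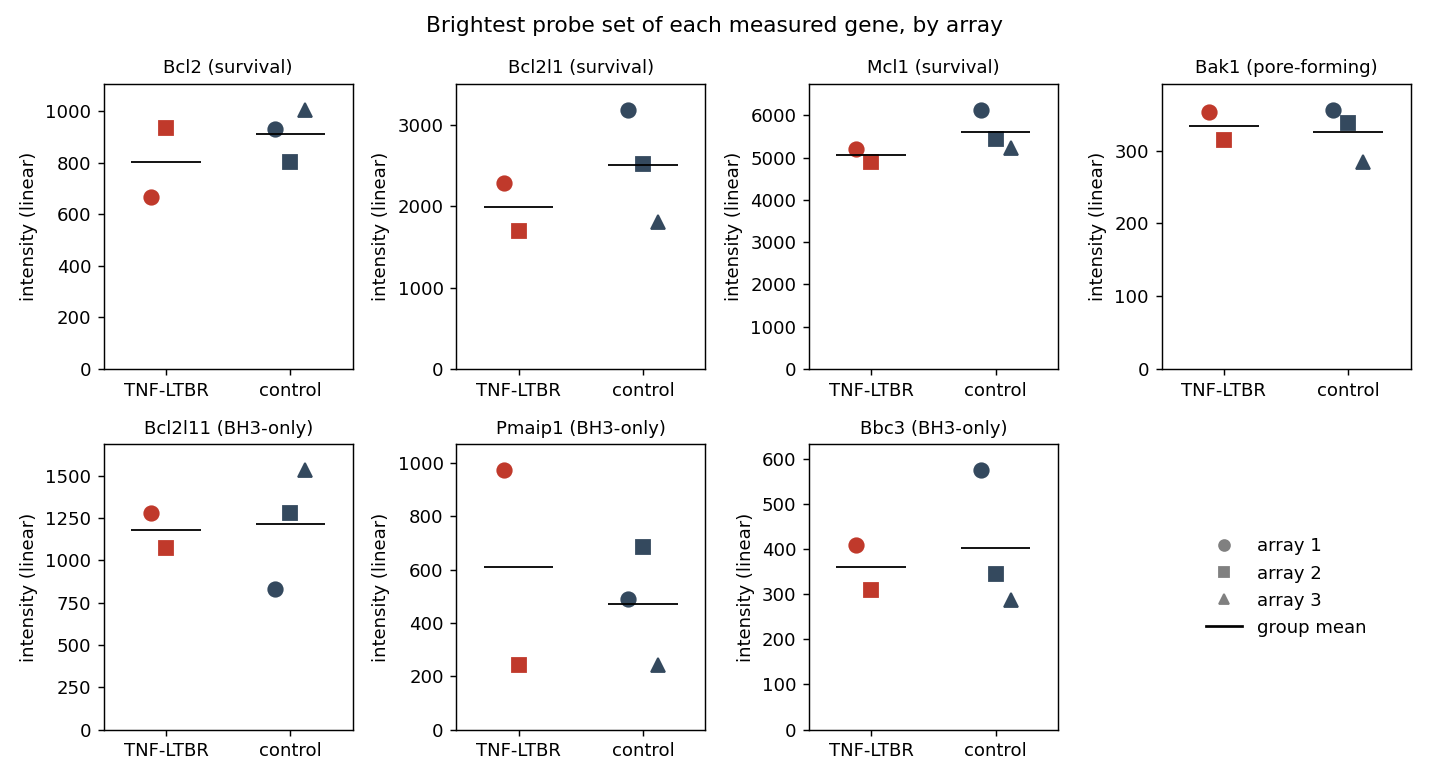
Intensity (linear scale, from 0) of the brightest probe set of each measured gene on the 2 TNF-LTBR arrays and the 3 control arrays, with symbols for the array number and a line at the group mean. Only for Mcl1 do both TNF-LTBR arrays lie below all 3 controls, and Pmaip1 spreads widely within both groups.

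Among the survival genes, Mcl1 encodes a short-lived protein that restrains Bak1 and is needed for the survival of many cell types. Its brightest probe set read 5210.9 and 4902.5 on the TNF-LTBR arrays, against 6138.5, 5450.8 and 5234.4 on the control arrays. Both TNF-LTBR arrays lay below every control, TNF-LTBR array 1 only just below control array 3. The log2 value was 12.31 ± 0.06 in TNF-LTBR (SD, n = 2) and 12.45 ± 0.12 in control (SD, n = 3), 0.904-fold, with a limma 95% interval of 0.731 to 1.12-fold (unadjusted p 0.279). Over all genes tested, both TNF-LTBR arrays lay below all controls for 6.34%, and above them for 6.94%, so 1 member of 7 without overlap is near the background.

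Mcl1 had the most probe sets of the family, 6 in all, and 5 of them were lower in TNF-LTBR by 0.06 to 0.19 on the log2 scale. The sixth was higher by 0.06. Groups did not overlap for 2 of the 6, and the brightest of those has an identifier suffix that can mark shared sequence. The other read 3251.7 and 2867.0 in TNF-LTBR, against 3986.2, 3276.0 and 3270.5 in control. TNF-LTBR array 2 was the lowest of the 5 arrays on 5 of the 6 probe sets, and control array 1 the highest on 4. Probe sets of a gene read the same RNA and are not replicates of the condition.

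Bcl2l1 encodes Bcl-xL, a survival protein of the outer mitochondrial membrane. Its brightest probe set read 2283.8 and 1693.6 in TNF-LTBR, against 3188.5, 2516.6 and 1801.8 in control. The groups overlapped, with control array 3 between the TNF-LTBR arrays. The log2 value was 10.95 ± 0.30 in TNF-LTBR and 11.26 ± 0.41 in control, a difference of -0.31 and 0.808-fold, with a limma 95% interval of 0.491 to 1.33-fold (unadjusted p 0.327). The next brightest probe sets differed by -0.24 and -0.25, and the dimmest, at 14.6 to 68.7, by 0.51. Control array 1 was the highest on 3 of these 4 probe sets and control array 3 the lowest on 3.

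Bcl2, the founding survival gene, read 665.6 and 936.1 in TNF-LTBR, against 929.7, 803.2 and 1006.0 in control. TNF-LTBR array 1 was the lowest of the 5 arrays, and TNF-LTBR array 2 lay among the controls. The difference was -0.20 (0.871-fold, limma 95% interval 0.606 to 1.25, unadjusted p 0.377). Its 5 probe sets differed by -0.20 to 0.25, with 4 lower in TNF-LTBR, and on each of the 5 the highest array was control array 3.

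**Figure D2:**
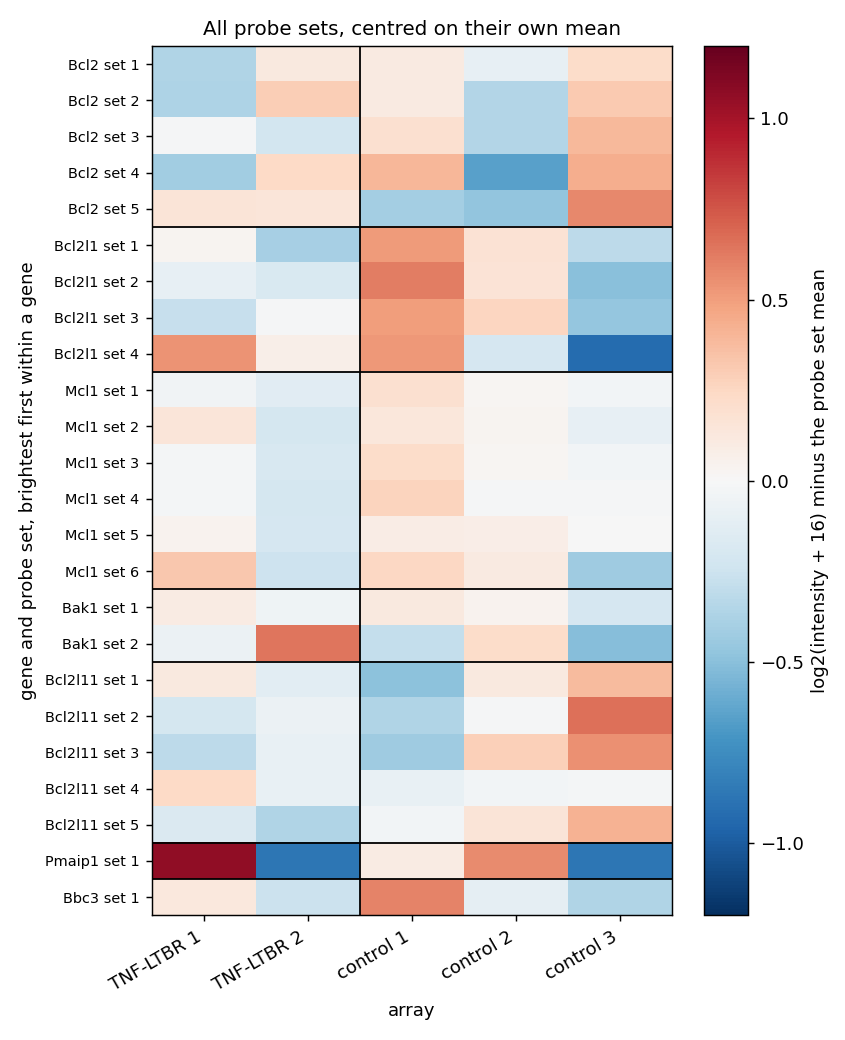
All 24 probe sets by array, as log2(intensity + 16) minus the mean of that probe set over the 5 arrays (red above, blue below). Rows of Bcl2 are highest on control array 3 and rows of Bcl2l1 are lowest there in 3 of 4, and for 22 of the 24 rows the range among controls is larger than the difference between groups.

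Bak1 was the measured pore-forming gene. Its brightest probe set read 352.7 and 315.1 in TNF-LTBR, against 356.6, 338.2 and 284.0 in control. Both TNF-LTBR values lay within the control range, and the difference was 0.04 (1.03-fold, limma 95% interval 0.743 to 1.41, unadjusted p 0.852). The SD of Bak1 over all 5 arrays, 0.13, exceeded that of 19.6% of the genes tested. The second probe set, at 30.7 to 87.9, differed by 0.48 with overlapping groups and lay below the tested range.

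Among the BH3-only genes, Bcl2l11 encodes Bim, which binds all survival proteins of the family and is induced by FoxO transcription factors. Its brightest probe set read 1280.0 and 1076.3 in TNF-LTBR, against 831.4, 1280.4 and 1532.4 in control. The TNF-LTBR arrays lay inside the control range, and the difference was -0.0048 (0.997-fold, limma 95% interval 0.601 to 1.65, unadjusted p 0.987). Of its 5 probe sets 4 were lower in TNF-LTBR, by up to 0.45 on the log2 scale, and 1 was higher by 0.12.

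Groups did not overlap for 1 Bcl2l11 probe set, which read 126.0 and 109.1 in TNF-LTBR, against 140.6, 162.3 and 198.6 in control (limma over all probe sets, unadjusted p 0.149). Control array 3 was the highest on 4 of the 5 Bcl2l11 probe sets and control array 1 the lowest on 4. Foxo3 and Foxo1, which encode FoxO factors, were also highest on control array 3. Foxo3 read 2543.0 and 2967.6 in TNF-LTBR, against 1961.8, 2355.8 and 4283.6 in control. Foxo1 read 671.4 and 1291.2 in TNF-LTBR, against 910.5, 829.7 and 1620.7 in control. Foxo3 and Foxo1 were picked with their values in view, and their part in the Bcl2l11 values was not tested.

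Over all 24 member probe sets, 17 were lower and 7 higher in TNF-LTBR. Groups did not overlap for 3, all lower, against 6.60% of all single-symbol probe sets that were lower without overlap and 8.73% that were higher. None of the 24 passed at an unadjusted p under 0.05 in limma run on every probe set, against 2.82% of all probe sets.

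Pmaip1 encodes Noxa, a p53-induced BH3-only protein that binds Mcl-1. It was the member with the widest spread: 971.7 and 243.5 in TNF-LTBR, against 489.3, 685.8 and 242.5 in control. Both groups held a high and a low array, and the TNF-LTBR arrays differed 3.81-fold from each other. The log2 value was 8.98 ± 1.36 in TNF-LTBR (SD, n = 2) and 8.82 ± 0.73 in control (SD, n = 3), 1.12-fold, with a limma 95% interval of 0.331 to 3.81-fold (unadjusted p 0.819). Its SD over the 5 arrays, 0.86, exceeded that of 94.8% of the genes tested. The difference between groups was 1.13 without TNF-LTBR array 2 and -0.80 without TNF-LTBR array 1.

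Bbc3 encodes Puma, another p53-induced BH3-only protein, which binds every survival protein of the family. Its probe set read 409.7 and 310.2 in TNF-LTBR, against 574.1, 345.2 and 287.2 in control. The TNF-LTBR arrays lay inside the control range, and the difference was -0.11 (0.929-fold, limma 95% interval 0.516 to 1.67, unadjusted p 0.762). Bbc3 and Bcl2l1, whose promoter windows hold the kB matches shown above, thus both had overlapping groups and differences below 0. Nfkbia read 14671.3 and 17861.9 in TNF-LTBR, against 10474.5, 5885.4 and 12049.0 in control, without overlap (1.79-fold, limma adjusted p 0.999, unadjusted p 0.0495).

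**Figure D3:**
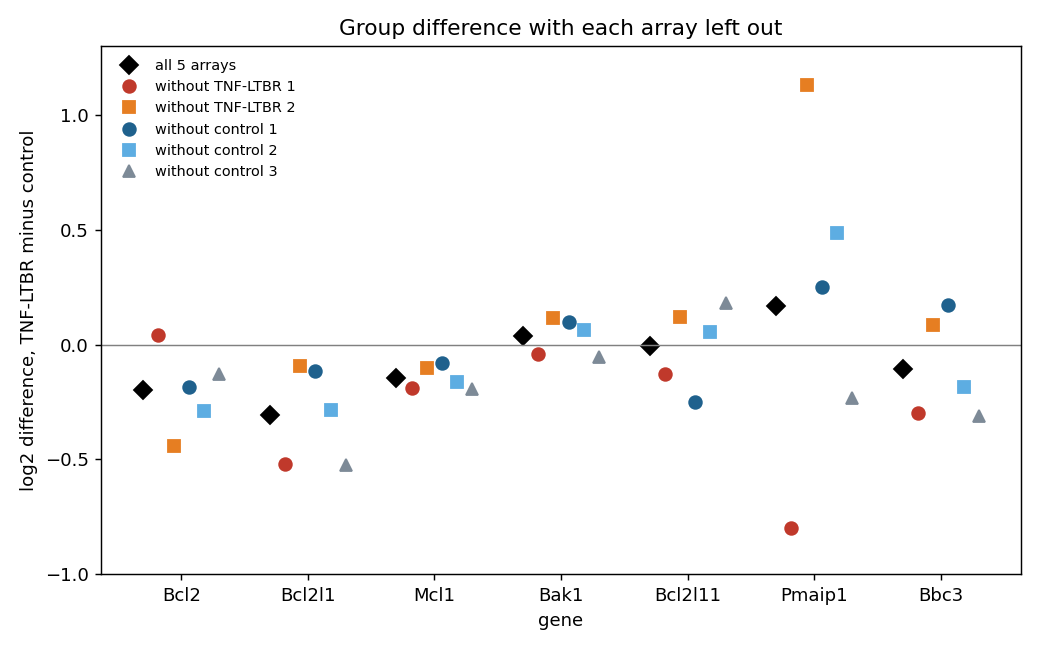
Difference of the log2 values, TNF-LTBR minus control, for each member with all 5 arrays and with each array left out. The 6 Mcl1 values and the 6 Bcl2l1 values stay below 0, while Pmaip1 runs from -0.80 to 1.13.

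The genes whose pattern over the 5 arrays lay closest to that of Pmaip1, by root mean square difference of mean-centred log2 values, were Pcbp3 (0.082), Tmem37 (0.095) and Asf1b (0.12), among 10915 genes compared. Pcbp3 read 735.6 and 205.4 in TNF-LTBR, against 388.7, 601.1 and 211.5 in control. Of the genes compared, 6.62% lay within 0.5 on this measure.

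The sum and the mean of the macrophage and leukocyte markers moved with Pmaip1 across the arrays, though not every marker did. The summed intensity of the 11 measured macrophage and leukocyte markers, of which 6 lay in the tested range, was 14695 and 2413 in TNF-LTBR, against 5316, 12878 and 2042 in control. The largest values in that sum were those of Lyz1 and Lyz2, at 6014 and 3933.6 on TNF-LTBR array 1. The mean log2 value of the 6 tested markers was 10.49 and 7.19 in TNF-LTBR, against 9.46, 10.31 and 7.77 in control. On both measures TNF-LTBR array 1 and control array 2 were highest and TNF-LTBR array 2 and control array 3 lowest, as for Pmaip1, but the order of the lowest arrays differed between the measures. Of those markers Ptprc, the pan-leukocyte gene CD45, read 12.3 to 75.2 and lay below the tested range with Itgam, Aif1, Fcgr1 and Mrc1. Aif1 read at most 33.0. Itgam read 118.7 and 35.9 in TNF-LTBR, against 21.8, 24.7 and 5.3 in control, and did not follow the order of the sum. Adgre1, Ptprc and Fcgr1 were higher on control array 1 than on control array 2. Cd53 was lower on control array 1 than on TNF-LTBR array 2, and Aif1 was highest on control array 1. Of 7 measured lymphocyte markers 6 lay below the range too, as did all 6 measured neutrophil markers, and Cd8a, the 1 lymphocyte marker in it, read 459.7 and 284.3 in TNF-LTBR, against 308.8, 460.0 and 298.4 in control. Smooth muscle markers summed to 14562 and 12305 in TNF-LTBR, against 28067, 20945 and 12585 in control, and fibroblast and pericyte markers to 69682 and 80501, against 38478, 65419 and 76391. The 6 tested endothelial markers had a mean log2 value of 8.75 and 8.34 in TNF-LTBR, against 8.72, 8.93 and 8.14 in control. That mean too was highest on TNF-LTBR array 1 and control array 2 and lowest on TNF-LTBR array 2 and control array 3. Of the 6 markers only Emcn had this pattern, at 477.3 and 78.4 in TNF-LTBR, against 220.9, 660.8 and 81.4 in control. Egfl7 and Plvap were highest on TNF-LTBR array 2, Esam was highest and Eng lowest on control array 1. Kdr was higher on control array 1 than on TNF-LTBR array 1. The mean log2 value of 9 tested type I interferon genes ran opposite to these means. It was 9.21 and 11.14 in TNF-LTBR, against 10.08, 8.86 and 10.96 in control. The part of these genes in the member values was not tested.

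Genes related to p53 were examined because Pmaip1 and Bbc3 are known p53 targets. Of 11 tested p53 and stress regulators, 0 were called and 0 had an unadjusted p under 0.05 in limma, 5 were higher and 6 lower, and the median difference was -0.05. Cdkn1a, which encodes the cell cycle inhibitor p21, read 4942.3 and 2587.3 in TNF-LTBR, against 5940.1, 5510.6 and 2475.1 in control. Ccng1, a p53 target that encodes cyclin G1, read 15104.6 and 7395.8 in TNF-LTBR, against 14897.5, 14824.8 and 7275.7 in control. Phlda3, a p53-induced inhibitor of Akt, read 5131.9 and 3647.8 in TNF-LTBR, against 5711.6, 5006.4 and 3161.1 in control. Each of these, like Pmaip1 and Bbc3, was lowest on control array 3 and TNF-LTBR array 2. Ddit3, Foxo3 and Foxo1 of the same list were instead highest on those arrays, and Myc and E2f1 were lowest on control arrays 1 and 3. Cycs and Vdac2, outside this list, were also lowest on control array 3 and TNF-LTBR array 2. The part of p53 in the Pmaip1 and Bbc3 values was not tested. Trp53 itself was not measured by a single-symbol probe set.

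**Figure D4:**
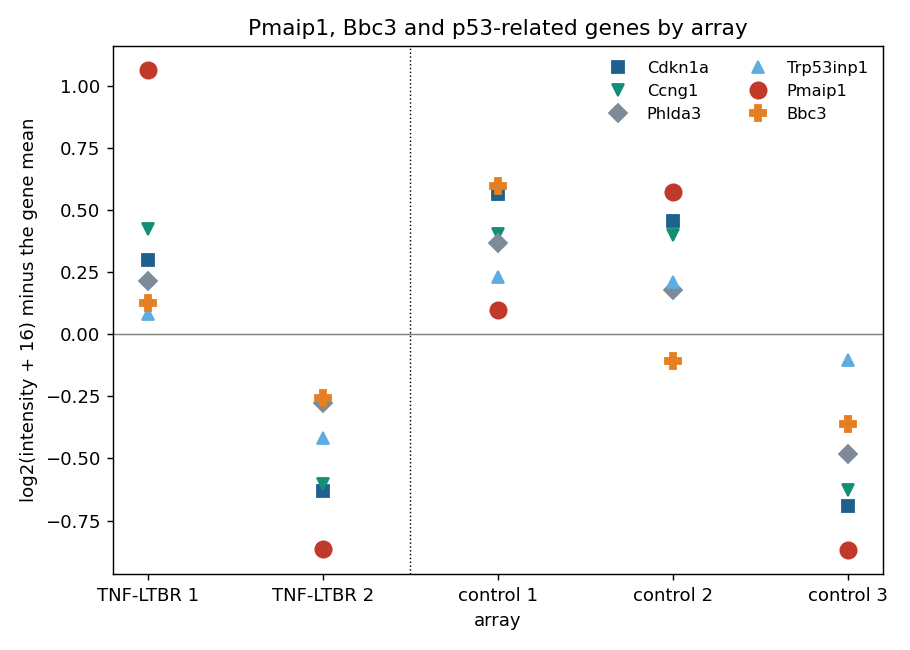
Pmaip1, Bbc3 and the p53-related genes Cdkn1a, Ccng1, Phlda3 and Trp53inp1 by array, as log2(intensity + 16) minus the mean of the gene over the 5 arrays. All 6 genes are lowest on TNF-LTBR array 2 and control array 3, one of each group. Not shown are Ddit3, Foxo3 and Foxo1 of the same list, which were highest on those arrays.

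The other Bcl-2 family genes gave no call either. Of 13 measured, 9 were in the tested range, with 6 higher and 3 lower in TNF-LTBR and a median difference of 0.23. Groups did not overlap for 2 of the 9, both higher, against 6.94% of all genes tested that were higher without overlap. Bad, which encodes a BH3-only protein controlled by survival-factor signalling, read 1595.0 and 1197.7 in TNF-LTBR, against 620.2, 1046.9 and 1090.5 in control (1.54-fold, limma 95% interval 0.906 to 2.62, unadjusted p 0.0914). Hrk, another BH3-only gene, read 189.0 and 166.6 in TNF-LTBR, against 149.3, 135.5 and 148.5 in control (1.21-fold).

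Bid links death receptors to the mitochondrial pathway once caspase-8 has cut it. It read 927.6 and 1829.7 in TNF-LTBR, against 546.2, 648.4 and 1241.7 in control, with overlapping groups (1.70-fold, limma unadjusted p 0.153). Bmf, a BH3-only gene, had overlapping groups too, at 184.3 and 526.6 in TNF-LTBR, against 206.3, 210.8 and 716.4 in control. Bcl2l2, a survival gene that encodes Bcl-w, differed by -0.09, and Bnip3, a hypoxia-induced gene, by 0.28, both with overlapping groups.

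Downstream of the mitochondria, 8 genes of the apoptosome and executioner step were tested, with 0 called, 5 higher and 3 lower, and a median of 0.06. In limma 1 had an unadjusted p under 0.05, against 1.76% of all genes tested. Apaf1, the scaffold of the apoptosome, read 842.1 and 861.2 in TNF-LTBR, against 837.4, 817.9 and 808.4 in control, without overlap but at 1.04-fold. Cycs, cytochrome c, differed by 0.17 and Diablo, which antagonises inhibitors of apoptosis, by -0.16, both with overlapping groups. Htra2, a mitochondrial protease chosen after its values were seen, read 813.9 and 918.8 in TNF-LTBR, against 550.5, 718.9 and 576.5 in control (a difference of 0.49, limma unadjusted p 0.0387, adjusted p 0.999).

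The inhibitors of apoptosis act on caspases and receptor complexes and not through the Bcl-2 family. Of 6 tested genes, these inhibitors and Cflar, 0 were called. In limma 2 had an unadjusted p under 0.05, against 1.76% of all genes tested. These were Birc3 and Birc2, which encode cIAP2 and cIAP1. Birc3 read 1961.5 and 1994.5 in TNF-LTBR, against 611.3, 556.3 and 811.3 in control, 2.99-fold with a limma 95% interval of 2.11 to 4.24. Birc2 was at 2.75-fold (1.88 to 4.04). The upper ends of the intervals of Bcl2, Bcl2l1, Mcl1, Bak1, Bcl2l11 and Bbc3, at most 1.67-fold, lay below the lower ends of both, while that of Pmaip1, 3.81-fold, did not. Birc3 and Birc2 were chosen with their differences known, so this is a description with no test.

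Xiap, a direct caspase inhibitor, read 2122.0 and 2466.5 in TNF-LTBR, against 2787.6, 2523.2 and 2639.1 in control (0.865-fold, no overlap). Cflar, which encodes the caspase-8 regulator c-FLIP, was at 1.01-fold with overlapping groups. Of 8 tested genes listed for NF-kB, namely subunits, inhibitors and the adaptor Traf2, all 8 were higher, with a median of 0.83 and 0 called. Groups did not overlap for 5, against 6.94% of all genes tested that were higher without overlap. In limma 5 had an unadjusted p under 0.05, against 1.76% of all genes tested. This list was chosen with earlier results of these data known. Nfkb2 was at 3.52-fold and Rela at 1.03-fold. Rel, another subunit, lay below the tested range with Traf1 and read 39.6 and 46.8 in TNF-LTBR, against 62.4, 70.6 and 78.2 in control, lower without overlap. It was picked with its values in view.

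**Figure D5:**
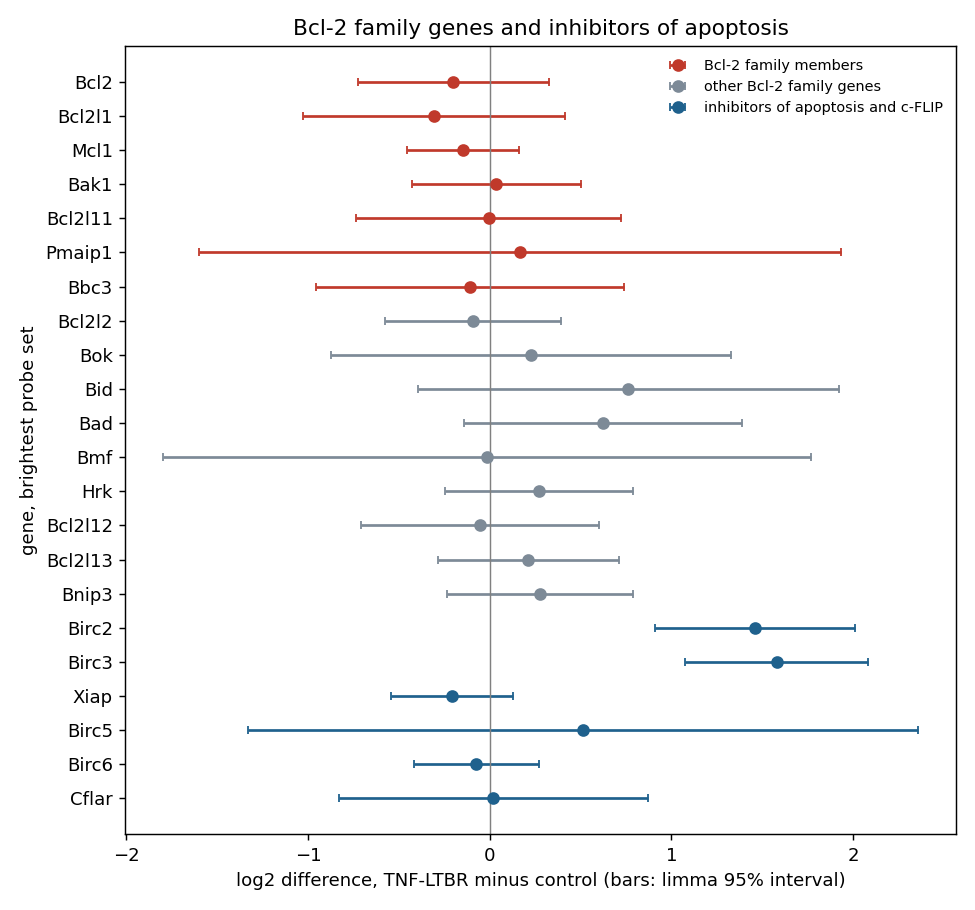
Difference of log2 values, TNF-LTBR minus control, with limma 95% intervals, for the 7 measured members, 9 other Bcl-2 family genes and 6 inhibitors of apoptosis or c-FLIP. Every Bcl-2 family interval includes 0, and Birc2 and Birc3 lie at 1.46 and 1.58.

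Partners of the family at the mitochondrion gave no call. Of 10 genes for outer membrane channels, import receptors and fission or fusion proteins, 5 were higher and 5 lower, and the median was -0.02. Groups did not overlap for 2 of the 10, Mff and Mfn1, both lower, against 6.34% of all genes tested. Vdac2, a channel that holds Bak1 in the membrane, read 9673.4 and 6624.1 in TNF-LTBR, against 7293.1, 9313.2 and 6276.7 in control. Of 7 genes listed for the turnover of the Mcl-1 protein, 6 were lower and 1 higher, with 0 called and a median of -0.12. Groups did not overlap for 2 of the 7, Btrc (0.716-fold) and Gsk3b (0.922-fold), both lower, against the same 6.34%. Trib1 was at 0.213-fold with overlapping groups, at 70.4 and 30.5 in TNF-LTBR, against 635.0, 620.1 and 48.0 in control. Btrc, Gsk3b and Trib1 were picked with their values in view. Huwe1, an Mcl-1 ubiquitin ligase, was at 0.996-fold and Usp9x, which removes ubiquitin from Mcl-1, at 1.04-fold, both with overlapping groups.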

How the data were processed

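The authors deposited 1 intensity per probe set and array on a linear scale. GCOS 1.4 is named in the submitters' processing notes, without the summarising algorithm or scaling target. After trimming 2% of probe sets from each end, the mean was 500 on each array, and array medians, 109.9 to 120.7, lay within 10% of each other, so values were used as deposited. Of 45101 probe sets, 34958 had 1 symbol, 932 several and 9211 none listed. Each gene was represented by its brightest single-symbol probe set, and the brightest 60% (mean log2 of at least 7.17, an intensity of 128) were tested on log2(intensity + 16) with limma 3.58.1 (R 4.3.3), using lmFit and trended eBayes, 3 residual degrees of freedom, two-sided, Benjamini-Hochberg adjusted, also on simulated data. The naming rule covered the members, the 3 brightest genes per pathway list and fixed names such as Birc3; not all of these are described, and member probe sets beyond the brightest are given mainly as ranges and counts. The members and lists were chosen with earlier results of these data known. Alternatives covered pseudocount, filter, normalization, probe set choice, eBayes trend, array weights, replicate block and each array left out. The number of arrays limits the precision.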

Additional observations from a re-analysis of the deposited data

How the results depend on the processing

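Over 16 alternatives 0 genes were called in limma (113 to 481 genes at an unadjusted p under 0.05), and 0 members passed an unadjusted p of 0.05 (lowest 0.0646, Bcl2l1 with the replicate number as a block). The direction of Bcl2l1 and Mcl1 held in all 16, though the alternatives of filter and eBayes trend cannot change the difference of a gene. The replicate numbers did not match the most similar arrays: deviations from the group mean correlated at 0.13 for number 1 and -0.80 for number 2. They correlated at 0.80 for TNF-LTBR array 1 with control array 2 and 0.81 for TNF-LTBR array 2 with control array 3. With 2 TNF-LTBR arrays the deviations mirror each other, so these values cannot settle whether the numbers mark a pairing. With the replicate block Bak1 was at -0.056, Bcl2l11 at 0.18 and Pmaip1 at -0.23, against 0.04, -0.0048 and 0.17; control array 3 has no partner and drops out of that comparison. With array quality weights they were at -0.015, 0.12 and -0.011, and Bcl2l11 was at 0.0001 with quantile normalization. Leaving out 1 array gave -0.44 to 0.042 for Bcl2, -0.52 to -0.093 for Bcl2l1, -0.19 to -0.080 for Mcl1, -0.056 to 0.11 for Bak1, -0.25 to 0.18 for Bcl2l11, -0.80 to 1.13 for Pmaip1 and -0.31 to 0.17 for Bbc3. Groups did not overlap for 1 member (Mcl1), for 3 member probe sets with every probe set on its own, for 0 members without shared-sequence suffixes (Mcl1 then at -0.056 on another probe set), and for 1 to 3 members with 1 array left out (fewer samples overlap less). The causes of the changed directions were not tested.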
